A study of Mus musculus with 8 samples.

Results

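Metalloproteinases and their tissue inhibitors were examined in primary pericyte cultures from mouse brain by bulk RNA sequencing. The members were taken by gene symbol, as the protein-coding genes named *Mmp*, *Adam*, *Adamts*, *Adamtsl* or *Timp* with a number. Of the 54532 gene identifiers in the count tables, 83 met this rule: 22 matrix metalloproteinases (MMP), 33 genes of the ADAM family, 19 ADAMTS genes, 5 ADAMTS-like (ADAMTSL) genes and 4 tissue inhibitors (TIMP). *Mmp1a* was left out because the annotation calls it a polymorphic pseudogene. The 8 cultures were wild-type (WT) and were sampled after 48 h, 4 of them with the cytokine TGF-β1 (5 μg/mL) and the other 4 with vehicle. The comparison asks how TGF-β1, a secreted signal that reaches pericytes from neighbouring cells, changes their transcripts. The cells were expanded first in endothelial growth medium and then in pericyte medium, and had been passaged several times before use. The methods describe isolates that received both treatments, whereas in the labels the numbers 1 to 4 belong to vehicle and 5 to 8 to TGF-β1. The groups were therefore compared as unpaired, and since no label ties a library to an isolate, the p-values measure only the spread between these cultures, which may be technical.

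MMPs are secreted or membrane-anchored enzymes that cleave collagens, elastin and other matrix proteins, and most are made as inactive precursors. ADAM proteases sit in the cell membrane and release the outer part of growth factors, adhesion molecules and receptors, while the secreted ADAMTS proteases trim procollagens and proteoglycans. TIMPs block the active site of MMPs and of some ADAM and ADAMTS enzymes, so both sides are needed to describe matrix turnover. Around brain capillaries, pericytes share a basement membrane with the endothelium, and its remodelling is a known site of action of MMPs.

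The catalytic families are joined by a zinc-binding site of 11 codons, in which 3 histidines hold the metal and a glutamate takes part in the cleavage. The site was searched in the coding sequences of GENCODE M21 (GRCm38, the assembly named mm10) as His-Glu-x-x-His-x-x-(Gly, Asn or Ser)-x-x-His. It was found in all 22 MMP and all 19 ADAMTS genes, in 20 of the 33 ADAM genes, and in none of the ADAMTSL or TIMP genes. The sites of the members with the clearest changes, and of the abundant *Mmp14*, *Adam10* and *Adam17*, are given to show what the families share. Capitals mark the codons of the histidines and the glutamate, the letters run 5′ to 3′ on the coding strand, and codons are counted from the start codon.
*Mmp3* site, chr9:7449775-7449807, plus strand, codon 220: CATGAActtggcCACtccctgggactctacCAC
*Mmp10* site, chr9:7504858-7504890, plus strand, codon 218: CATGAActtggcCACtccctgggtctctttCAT
*Mmp13* site, chr9:7276573-7276605, plus strand, codon 223: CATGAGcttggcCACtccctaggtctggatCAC
*Mmp2* site, chr8:92839279-92839311, plus strand, codon 403: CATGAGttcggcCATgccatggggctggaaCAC
*Mmp14* site, chr14:54437627-54437659, plus strand, codon 239: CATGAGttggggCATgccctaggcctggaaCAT
*Adam10* site, chr9:70754296-70761585, plus strand, codon 384: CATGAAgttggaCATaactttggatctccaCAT
*Adam17* site, chr12:21336732-21336764, minus strand, codon 424: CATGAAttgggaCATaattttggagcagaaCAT
*Adam19* site, chr11:46125050-46125082, plus strand, codon 346: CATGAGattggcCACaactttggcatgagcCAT
*Adamts12* site, chr15:11241529-11255564, plus strand, codon 396: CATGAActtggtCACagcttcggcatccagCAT
*Adamts15* site, chr9:30911255-30911690, minus strand, codon 361: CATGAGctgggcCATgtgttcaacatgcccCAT
The eighth codon is for glycine in all the MMP and ADAM sites found. In ADAMTS genes it is for glycine in 13, for asparagine in 5 (*Adamts1*, *Adamts4*, *Adamts9*, *Adamts15* and *Adamts20*) and for serine in 1 (*Adamts8*). The families also differ in gene structure. The site lies within a single exon in every MMP gene, which is exon 5 in 18 of them, exon 8 in the gelatinase genes *Mmp2* and *Mmp9*, and exon 4 in *Mmp21* and *Mmp27*. In all 19 ADAMTS genes the site is divided between 2 exons, so the coordinates of the *Adamts12* and *Adamts15* sites span an intron, as do those of *Adam10*. Among ADAM genes with the site, *Adam10* has this split form and the other 19 have it in 1 exon.

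Each library held between 45255235 and 47651397 counts, so that 3 counts corresponded to 0.0631 to 0.0658 CPM (counts scaled to the library total and its TMM factor). Of the counts from 1 to 20, 68.5% to 70.2% were even in each library, which leaves fewer independent fragments than counts if both mates of a pair were counted. All 6 genes listed to check the treatment passed the test, and *Tgfbi* was the 1 that fell. Of 11 markers of pericytes and mural cells, *Pdgfrb*, *Cspg4*, *Notch3*, *Anpep* and *Acta2* were well above 10 CPM, whereas *Des*, *Abcc9*, *Kcnj8*, *Vtn* and *Higd1b* were below 1 CPM in both groups. Of the 8 that were tested, 2 rose, *Cspg4* from 82.9 to 169 CPM and *Pdgfrb* from 202 to 291 CPM, and 2 fell, *Rgs5* from 8.62 to 2.13 CPM and *Anpep* from 40.5 to 30.1 CPM. The cultures thus held some defining markers of brain pericytes and lacked others. The 7 fibroblast markers summed to 3718 to 3878 CPM with vehicle and 5327 to 5569 CPM with TGF-β1. Nearly all of this came from *Col1a1* and *Col1a2*, which both rose, while *Dcn* fell from 52.1 to 46.7 CPM and *Pdgfra* was at 62.5 and 63.0 CPM. *Dpt*, at 0.490 and 0.277 CPM, had 91 counts in all with vehicle and 51 with TGF-β1. It was called lower, but with as few as 9 counts in a treated culture it met the count minimum throughout only with vehicle. Endothelial markers summed to 389 to 404 and 373 to 399 CPM, of which *Cdh5* made up nearly all and *Cldn5*, *Emcn* and *Tie1* were close to 0. Of 4 tested, *Tek* fell and none rose. The 5 astrocyte markers summed to 50.1 to 57.2 and 39.2 to 44.2 CPM. Of 4 tested, *Slc1a3* and *Aldh1l1* rose, *Slc1a2* fell from 38.5 to 16.3 CPM, and *Aqp4* had 0 counts with vehicle and 11 in all with TGF-β1. The 5 oligodendrocyte markers summed to 3.86 to 5.07 and 5.15 to 5.70 CPM, with *Mbp* the 1 of 3 tested that passed, at 1.86 and 2.62 CPM.

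TGF-β1 changed most of the metalloproteinase and TIMP genes that were expressed, in both directions. Of the 83 members, 61 passed the filter on low counts and were tested. At an adjusted p under 0.05 (edgeR quasi-likelihood test, Benjamini-Hochberg adjustment over 22544 genes), 21 were higher and 22 were lower with TGF-β1, and 18 did not pass. The 43 that passed are 70.5% of the members tested, where 41.3% of all genes tested passed. Of all genes, 20.9% passed in the upward and 20.3% in the downward direction. With an absolute log2 fold change of at least 0.5 as well, 22 of the 61 members remained, against 14.0% of all genes. The median log2 fold change of the tested members was -0.07, and that of all genes tested was -0.01. The members tested had to reach a count minimum in at least 4 cultures, so these shares do not describe all 83, and 2 of the 21 that were higher (*Mmp8* and *Mmp1b*) met the minimum throughout only in the treated group. In bulk RNA, fewer cells of a type and less RNA per cell cannot be told apart.

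**Figure D1:**
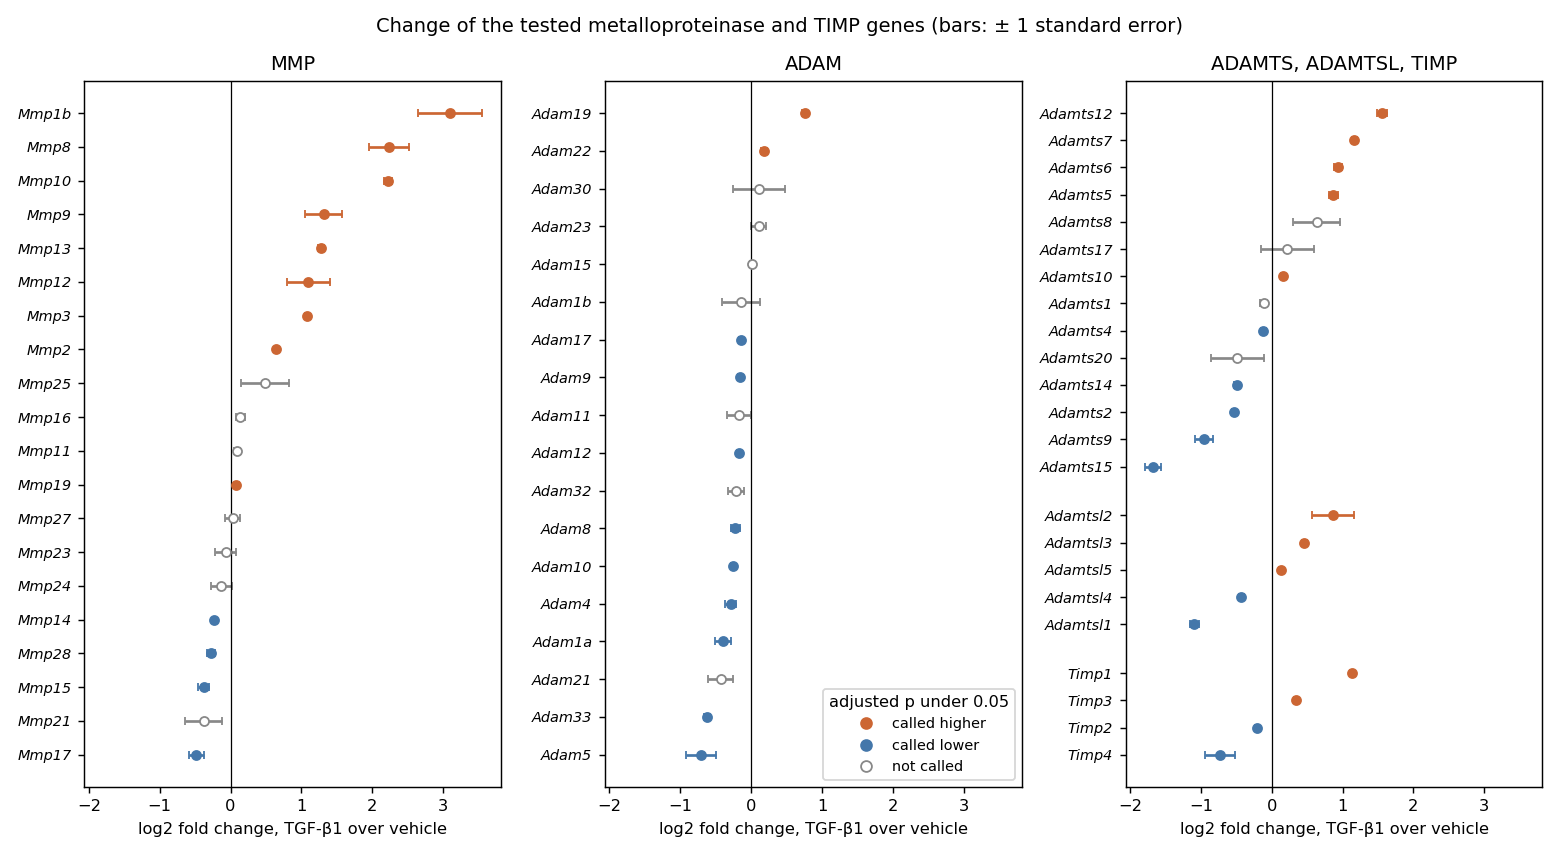
Log2 fold change of the 61 tested members (x axis, TGF-β1 over vehicle) with bars of ± 1 standard error, in panels by family. Filled points passed an adjusted p under 0.05. The MMP panel reaches furthest to the right, where *Mmp10* is at 2.23 and the points beyond it are *Mmp8* and *Mmp1b*, which met the count filter only through the treated cultures. The lowest value is *Adamts15* at -1.68.

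Of the members that met the count minimum in every culture, *Mmp10* rose most (log2 fold change 2.23). *Adamts12* (1.55) and *Mmp9* (1.32), at other loci, came next. *Mmp10* belongs to a row of MMP genes that stand side by side. Chromosome 9 holds 9 MMP genes between 7272514 and 7699585 of GRCm38, with no other protein-coding gene in between. In map order these are *Mmp13*, *Mmp12*, *Mmp1b*, *Mmp3*, *Mmp10*, *Mmp8*, *Mmp27*, *Mmp20* and *Mmp7*. Of these, 5 reached the count minimum of the filter in all cultures of both groups, of which *Mmp13*, *Mmp12*, *Mmp3* and *Mmp10* rose and *Mmp27* did not pass. *Mmp8* and *Mmp1b* were called higher as well, but met the filter only through the treated cultures, and *Mmp20* and *Mmp7* were not tested. Of the 13 MMP genes at other places, all tested, 3 rose (*Mmp2*, *Mmp9* and *Mmp19*) and 4 fell (*Mmp14*, *Mmp15*, *Mmp17* and *Mmp28*). That is 53.8% of the 13, where 41.3% of all genes tested passed. The difference between these groups of genes was not tested.

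*Mmp3* (ENSMUSG00000043613, chr9:7445822-7455975) and *Mmp10* (ENSMUSG00000047562, chr9:7502352-7510240) encode stromelysins, which cleave many matrix proteins and activate other MMP precursors. *Mmp3* was at 47.1, 47.1, 48.2 and 46.5 CPM in vehicle cultures 1 to 4, and at 104, 102, 98.9 and 94.9 CPM in TGF-β1 cultures 5 to 8. The lowest treated culture was thus close to 2 times the highest vehicle culture, and the groups were far apart. Its log2 fold change was 1.08 (standard error 0.03, edgeR adjusted p = 2.21e-29). *Mmp10* started much lower, at 7.42, 7.44, 8.12 and 8.51 CPM, and reached 32.8, 39.0, 37.2 and 38.4 CPM. Every treated culture was above every vehicle culture, and the spread within a group was small beside the gap. At a log2 fold change of 2.23 (standard error 0.06, edgeR adjusted p = 1.37e-30), it showed the largest rise of any member with a mean above 1 CPM over all 8 cultures. About 8.4% of the 50-base words of each of these paralogs also occur in other genes. The third stromelysin by name, *Mmp11*, is at another locus and did not pass (log2 fold change 0.10, adjusted p = 0.0507).

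*Mmp13* (ENSMUSG00000050578, chr9:7272514-7283331) encodes collagenase-3, one of the enzymes that open the triple helix of fibrillar collagen. It was at 39.1, 37.2, 39.3 and 38.3 CPM with vehicle and at 87.2, 104, 90.9 and 91.1 CPM with TGF-β1. The vehicle cultures lay within about 2 CPM of each other, and all treated cultures lay well above them. The log2 fold change was 1.28 (standard error 0.04, edgeR adjusted p = 9.33e-19). The other collagenase genes were near the limit of detection and are given as raw counts. *Mmp8*, the collagenase first described in neutrophils, had 26, 8, 6 and 16 counts with vehicle and 65, 61, 82 and 57 with TGF-β1. *Mmp1b*, a mouse relative of interstitial collagenase, had 2, 2, 5 and 3 counts with vehicle and 15, 23, 40 and 28 with TGF-β1. The groups did not overlap in either gene. The summed counts gave a ratio of 4.72 for *Mmp8* and of 8.80 for *Mmp1b*, as a description without a test. Both genes reached the count minimum of the filter in every culture only with TGF-β1. They thus entered the test through the group where they are high, and their fitted change and p are not printed here. The plot of log2 fold changes by family does show their fitted points, and the counts of members called higher include them.

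*Mmp12*, the metalloelastase known from macrophages, had 20, 12, 12 and 18 counts with vehicle and 24, 48, 29 and 32 with TGF-β1. The treated cultures were all higher, but the nearest values, 20 and 24, almost met. Its ratio of summed counts was 2.14 (exact 95% interval 1.57 to 2.94, counting error only), with a log2 fold change of 1.10 (edgeR adjusted p = 0.00306). Such intervals are too narrow if both mates of a pair were counted. *Mmp12* and *Mmp1b* overlap on opposite strands over 10.8% of the exonic length of *Mmp1b*, 19.7% of the 50-base words of *Mmp1b* occur in other genes, and the strand setting of the counting is not given in the sources used here. *Mmp27* did not pass, at 4.92 ± 0.449 CPM with vehicle and 5.02 ± 0.629 CPM with TGF-β1 (SD, n = 4 each). *Mmp20*, the enamel protease, and *Mmp7*, matrilysin, had at most 4 counts in any culture.

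Markers of the blood cells known for *Mmp8*, *Mmp9* and *Mmp12* were read beside these low values. The 7 neutrophil markers summed to 0.325 to 0.943 CPM with vehicle and 1.27 to 1.74 CPM with TGF-β1. This came mainly from *S100a8* (0.298 and 1.17 CPM), the only one of them tested, which was called higher. With as few as 3 counts in a vehicle culture, *S100a8* met the filter only through the treated cultures. *Ly6g*, *Elane*, *Mpo*, *S100a9*, *Csf3r* and *Cxcr2* averaged at most 0.103 CPM in either group. The 8 markers of microglia and macrophages summed to 109 to 114 and 109 to 111 CPM. *Tmem119* gave nearly all of this sum, *Ptprc*, *Aif1* and *Itgam* were below 1 CPM, and *Csf1r* passed the test at 1.50 and 2.50 CPM.

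**Figure D2:**
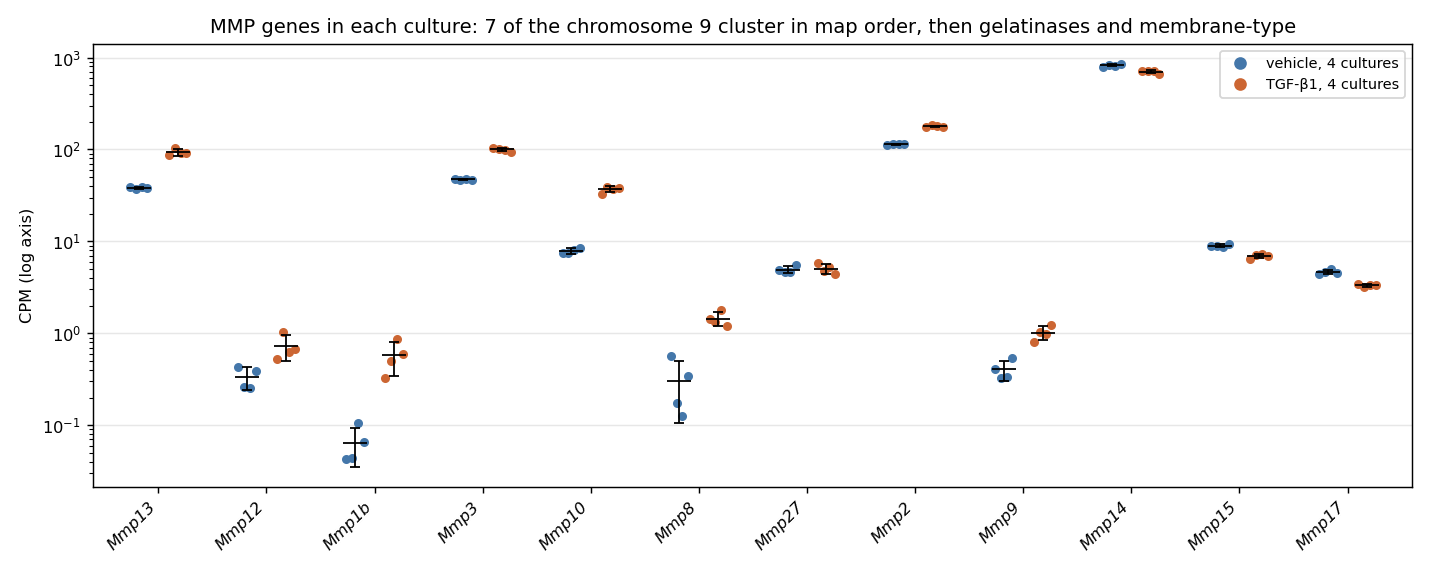
Level of 12 MMP genes in each culture (y axis, CPM on a log axis), with the mean as a long line and ± 1 SD as bars, 4 cultures per group. The first 7 genes are those of the chromosome 9 group in map order. All of these except *Mmp27* sit higher with TGF-β1, whereas *Mmp14*, *Mmp15* and *Mmp17* sit lower.

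The promoters of the members were read for the letters of the AP-1 site, which FOS and JUN proteins bind, and of the CAGA box, which SMAD3 and SMAD4 bind. The letters were TGANTCA and AGCCAGACA on both strands, in RefSeq promoters from 250 bases before to 50 bases after the start (GRCm38.p6). Promoter sequences were matched for 52 of the 83 members. AP-1 letters were found in 12 of these 52, and in 8.97% of the 27025 genes in the table. All 9 genes of the chromosome 9 group had a promoter entry and 7 held the letters, those of *Mmp8* and *Mmp27* not. Of the 8 MMP genes elsewhere with an entry, 0 held them. The table had no entry for *Mmp2*, *Mmp9*, *Mmp16*, *Mmp17* and *Mmp19*, which include every MMP gene elsewhere that rose. The windows of the AP-1 letters are shown with 12 bases on each side, with the match in capitals and the position of its first capital counted from the start site. *Adam19*, the other called member with a match, follows them. *Mmp12*, *Mmp7* and *Adam19* also have entries at other start sites that held no match. A gene was counted as holding the letters if any of its entries did.
*Mmp13* promoter, chr9:7272467-7272497, plus strand, first capital at -35: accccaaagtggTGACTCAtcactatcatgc
*Mmp12* promoter, chr9:7347318-7347348, plus strand, first capital at -44: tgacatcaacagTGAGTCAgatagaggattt
*Mmp1b* promoter, chr9:7388101-7388131, minus strand, first capital at -93: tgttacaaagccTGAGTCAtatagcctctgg
*Mmp3* promoter, chr9:7445764-7445794, plus strand, first capital at -46: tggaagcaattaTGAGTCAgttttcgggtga
*Mmp10* promoter, chr9:7502267-7502297, plus strand, first capital at -63: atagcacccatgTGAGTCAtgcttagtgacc
*Mmp20* promoter, chr9:7628124-7628154, plus strand, first capital at -95: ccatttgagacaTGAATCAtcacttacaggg
*Mmp7* promoter, chr9:7692015-7692045, plus strand, first capital at -63: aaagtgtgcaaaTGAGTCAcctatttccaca
*Adam19* promoter, chr11:46055841-46055871, plus strand, first capital at -131: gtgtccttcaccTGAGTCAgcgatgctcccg
In the 5 called genes of the chromosome 9 group with a match, it began between 93 and 35 bases before the start. Of the 12 members with the letters, 6 were higher with TGF-β1 (*Mmp1b* among them), 0 were lower, 1 did not pass and 5 were not tested. Of the 40 members with an entry and no match, 8 were higher, 13 were lower, 12 did not pass and 7 were not tested. The CAGA box was found in none of the 52 and in 0.433% of all genes. A match of letters does not show that a factor binds there, and no test was made of these counts. The transcripts of the factors themselves moved in both directions. Of 14 transcription factors known to act at MMP promoters, 8 rose and 3 fell, so that 78.6% passed where 41.3% of all genes tested did. The largest rises were *Ets2* (log2 fold change 0.82), *Runx1* (0.74) and *Fos* (0.66). *Fosl1*, *Junb*, *Fosl2* and *Fosb* rose by 0.50, 0.46, 0.45 and 0.43, and *Jun* did not pass (edgeR adjusted p = 0.292). Those that fell were *Jund*, *Ets1* and *Smad3*, with log2 fold changes of -0.20, -0.16 and -0.13.

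The gelatinases, which cleave denatured collagen and basement membrane collagen, both rose. *Mmp2* (ENSMUSG00000031740, chr8:92827291-92853420) was at 112, 115, 115 and 114 CPM with vehicle and at 178, 182, 180.0 and 173 CPM with TGF-β1. The cultures of each group were within a few percent of each other, and the groups were clearly apart, with a log2 fold change of 0.65 (standard error 0.03, edgeR adjusted p = 8.57e-25). *Mmp9* was close to the detection limit. It had 19, 15, 16 and 25 counts with vehicle and 37, 47, 45 and 58 with TGF-β1, without overlap. The ratio of its summed counts was 2.49 (1.89 to 3.29), with a log2 fold change of 1.32 (edgeR adjusted p = 4.31e-05). On the scale of TPM, in which counts are corrected for exon length and scaled to a fixed total, *Mmp2* stood at 225 and *Mmp9* at 1.22 TPM in the treated cultures.

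The membrane-type MMPs fell or did not pass. Of the 6 tested, 3 fell and none rose, where 41.3% of all genes tested passed, 20.9% upward and 20.3% downward. Those that did not pass had log2 fold changes of 0.14 (*Mmp16*), -0.13 (*Mmp24*) and 0.49 (*Mmp25*). The set thus had no shared direction, and its difference from other MMPs was not tested. *Mmp14* (ENSMUSG00000000957, chr14:54431612-54445364), which encodes MT1-MMP, the activator of the MMP2 precursor at the cell surface, was the most abundant MMP per length at 591 TPM with vehicle and 503 TPM with TGF-β1. It was at 797, 837, 816 and 848 CPM with vehicle and at 719, 716, 714 and 669 CPM with TGF-β1. All treated cultures were lower, by a margin larger than the spread within either group. The change was small, at -0.23 on the log2 scale (standard error 0.02, edgeR adjusted p = 6.84e-11). *Mmp15* fell by 0.38 and *Mmp17* by 0.48 (edgeR adjusted p = 5.56e-05 and 0.000201), while *Mmp16*, *Mmp24* and *Mmp25* did not pass, with adjusted p from 0.0563 to 0.538. Of the other MMPs, *Mmp28* (epilysin) fell by 0.27 (edgeR adjusted p = 3.67e-05). *Mmp19* rose by 0.08 (adjusted p = 0.0443), but its groups overlapped, 28.3% of its exonic length is shared with genes on the other strand, and the call was lost in 9 of 15 other fits. *Mmp23* and *Mmp21* did not pass and were below 2 CPM on average.

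The inhibitors changed in composition. All 4 TIMP genes passed the test, 2 in each direction, where 41.3% of all genes tested passed. *Timp1* (ENSMUSG00000001131, chrX:20870166-20874735), the most inducible of the family, was at 94.3, 89.8, 97.0 and 97.8 CPM with vehicle and at 202, 216, 206 and 205 CPM with TGF-β1. The lowest treated culture was about 2 times the highest vehicle culture, and the log2 fold change was 1.13 (standard error 0.03, edgeR adjusted p = 7.21e-32). *Timp3* (ENSMUSG00000020044, chr10:86300372-86349506), which stays bound to the matrix and also inhibits ADAM17 and aggrecan-cleaving ADAMTS enzymes, was at 266, 259.6, 266 and 274 CPM with vehicle and at 321, 349, 325 and 352 CPM with TGF-β1. Its groups did not overlap and it rose by 0.34 (standard error 0.03, edgeR adjusted p = 1.13e-13), although 21.3% of its exonic length overlaps *Syn3* on the other strand.

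*Timp2* (ENSMUSG00000017466, chr11:118301069-118355740), the inhibitor that with MT1-MMP brings the MMP2 precursor to the cell surface, was the most abundant member of all, at 1765 and 1520.0 TPM. In CPM it was 1601, 1601, 1596 and 1636 with vehicle and 1433, 1403, 1389 and 1345 with TGF-β1. Each treated culture lay below each vehicle culture, a fall of 0.21 on the log2 scale (standard error 0.02, edgeR adjusted p = 2.94e-11). *Timp4*, the scarcest, was at 2.54, 2.15, 1.11 and 1.75 CPM with vehicle and at 1.09, 1.20, 0.829 and 1.43 CPM with TGF-β1. Its groups overlapped, since vehicle culture 3 lay among the treated ones. It passed the test with a log2 fold change of -0.73 (standard error 0.21, edgeR adjusted p = 0.00392).

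Summed per family in TPM, both MMP and TIMP transcripts were higher with TGF-β1, and the make-up of each sum shifted. The MMP sum was 1128, 1143, 1121 and 1144 TPM with vehicle and 1410.0, 1444, 1431 and 1375 TPM with TGF-β1. The TIMP sum was 2380.0, 2339, 2338 and 2391 TPM with vehicle and 2691, 2717, 2686 and 2664 TPM with TGF-β1. Neither sum overlapped between the groups. *Mmp14* made up a mean of 52.1% of the MMP sum with vehicle and 35.5% with TGF-β1. The share of *Mmp3* went from a mean of 9.89 to 16.7%, that of *Mmp13* from 5.43 to 10.5% and that of *Mmp10* from 1.72 to 6.43%. *Timp2* made up a mean of 74.7% and 56.5% of the TIMP sum in the vehicle and treated cultures, and *Timp1* 19.3% and 36.9%.

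The ratio of the MMP sum to the TIMP sum was 0.474, 0.489, 0.480 and 0.478 with vehicle and 0.524, 0.531, 0.533 and 0.516 with TGF-β1. All treated cultures were higher, by 0.13 in mean log2 ratio (pooled SD 0.02). The sign depended on which proteases were counted, as the difference was 0.56 without *Mmp14* and -0.085 with MMP, ADAM and ADAMTS genes summed together. Secreted MMPs over TIMPs went from a mean of 0.220 to 0.331, and membrane-type MMPs over TIMPs from 0.259 to 0.193. The ratio of ADAM genes with a zinc site went from 0.392 to 0.315 and that of ADAMTS genes from 0.126 to 0.102. These ratios of summed transcripts are descriptions without a test and do not measure protein or activity.

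**Figure D3:**
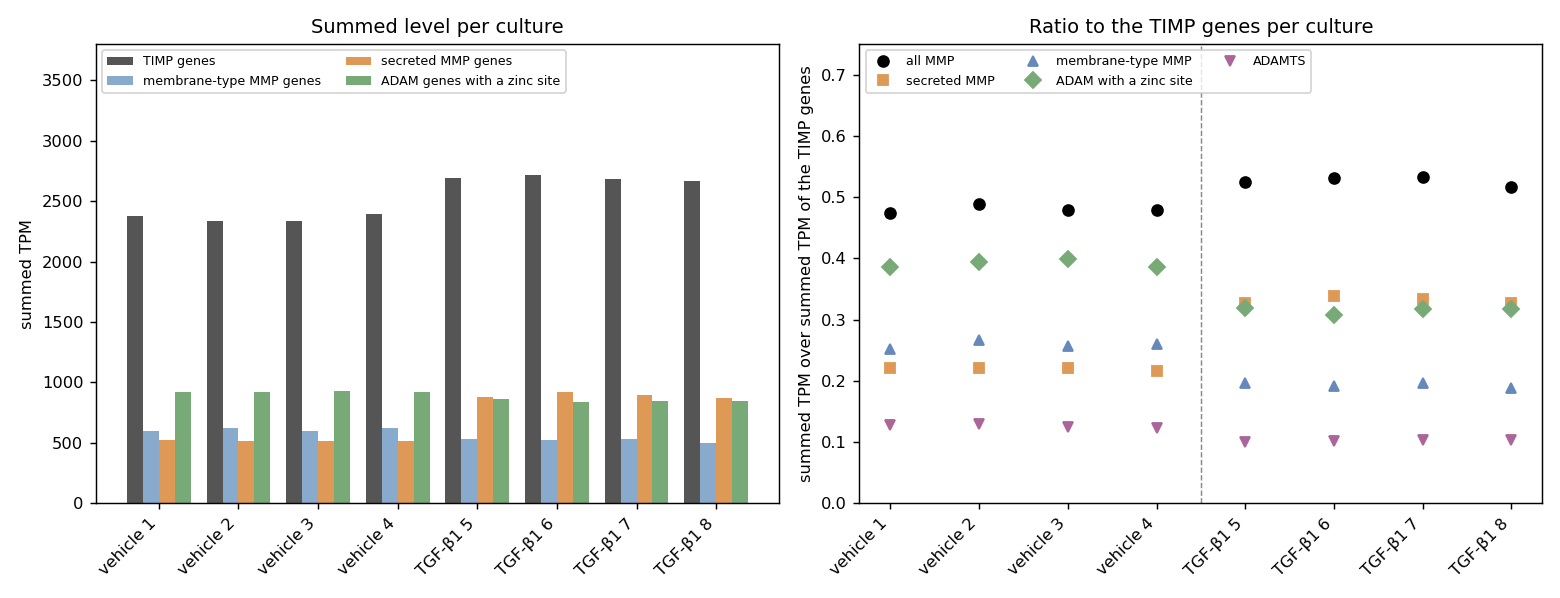
Summed TPM of 4 groups of genes in each culture (left, bars from 0) and the ratio of each protease sum to the TIMP sum (right, points), for vehicle cultures 1 to 4 and TGF-β1 cultures 5 to 8. Secreted MMP over TIMP sits at 0.216 to 0.222 with vehicle and 0.326 to 0.338 with TGF-β1, and membrane-type MMP over TIMP moves from 0.251 to 0.266 down to 0.188 to 0.197.

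Known enzyme and inhibitor pairs did not all shift alike. *Mmp14* over *Timp2* was 0.325, 0.342, 0.334 and 0.339 with vehicle and 0.328, 0.334, 0.336 and 0.325 with TGF-β1. *Mmp3* over *Timp1* was 0.246, 0.259, 0.245 and 0.235 with vehicle and 0.254, 0.233, 0.237 and 0.228 with TGF-β1. In both pairs the groups overlapped. *Mmp2* over *Timp2* went from a mean of 0.0818 to 0.148, *Mmp10* over *Timp1* from 0.0428 to 0.0916, and *Mmp13* over *Timp1* from 0.135 to 0.149, all without overlap. *Adam17* over *Timp3* went from 0.510 to 0.365, with all treated cultures lower. *Adamts15* over *Timp3* also went down, from 0.402 to 0.0998, whereas *Adamts5* over *Timp3* went up, from 0.0282 to 0.0410, both without overlap.

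The ADAMTS proteases were split, with 5 higher and 5 lower among the 14 tested. They are given below in sets of relatives that were drawn after values were seen. The first 3 sets hold 2 tested genes each, so a shared direction within a set is a description only. Of the 14, 71.4% passed, where 41.3% of all genes tested did. The procollagen N-proteinases, which cut the amino end off fibrillar procollagens, fell. *Adamts2* (ENSMUSG00000036545, chr11:50602084-50807573), the most abundant ADAMTS gene per length, was at 149.9, 153, 144 and 148 CPM with vehicle and at 106, 101, 107 and 96.9 CPM with TGF-β1. Each treated culture was lower, with a log2 fold change of -0.53 (standard error 0.03, edgeR adjusted p = 8.09e-20). *Adamts14* fell by 0.50 (edgeR adjusted p = 5.47e-14), and *Adamts3*, the third of this kind, had at most 19 counts and was not tested.

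*Adamts7* and *Adamts12*, a closely related pair known to cleave cartilage oligomeric matrix protein, both rose. *Adamts7* was at 26.9, 24.7, 26.3 and 25.3 CPM with vehicle and at 55.0, 60.3, 58.5 and 57.7 CPM with TGF-β1. *Adamts12* (ENSMUSG00000047497, chr15:11064790-11349231) was at 5.58, 5.66, 5.87 and 5.78 CPM with vehicle and at 14.3, 17.2, 17.3 and 18.3 CPM with TGF-β1. Neither gene had overlapping groups, and the vehicle values of *Adamts12* were almost equal. Their log2 fold changes were 1.17 and 1.55 (standard errors 0.04 and 0.07, edgeR adjusted p = 2.80e-27 and 8.26e-22). The pair *Adamts6* and *Adamts10*, linked to fibrillin microfibrils, also rose. *Adamts6* was at 42.5, 40.03, 42.7 and 39.5 CPM with vehicle and at 72.0, 83.5, 73.9 and 85.5 CPM with TGF-β1, far apart, with a log2 fold change of 0.93 (edgeR adjusted p = 6.73e-11), and *Adamts10* rose by 0.16 (adjusted p = 7.87e-05).

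The proteoglycan-cleaving ADAMTS genes, whose substrates include versican and aggrecan, did not move as 1 group. Of 7 tested, 1 rose, 3 fell and 3 did not pass. The share that passed was 57.1%, against 41.3% of all genes tested. *Adamts15* (ENSMUSG00000033453, chr9:30899155-30922452) was the member with the largest fall, at 143, 144, 129 and 129 CPM with vehicle and 50.9, 39.4, 44.0 and 35.6 CPM with TGF-β1. The highest treated culture was less than 40% of the lowest vehicle culture. Its log2 fold change was -1.68 (standard error 0.11, edgeR adjusted p = 2.17e-05). *Adamts9* was at 5.82, 4.74, 6.65 and 5.44 CPM with vehicle and at 3.29, 2.09, 2.79 and 3.49 CPM with TGF-β1, lower in every treated culture (log2 fold change -0.96, adjusted p = 6.43e-08). *Adamts5*, the main aggrecanase of mouse cartilage, rose from 10.1, 8.40, 11.2 and 10.1 CPM with vehicle to 20.1, 17.5, 17.7 and 17.6 CPM with TGF-β1. Its groups were well apart (log2 fold change 0.87, adjusted p = 3.57e-14). *Adamts4* fell by 0.12 (adjusted p = 0.00966), a call lost without TGF-β1 culture 8, where the adjusted p was 0.0622, and *Adamts1*, *Adamts8* and *Adamts20* did not pass. Of the remaining ADAMTS genes, *Adamts17* did not pass, and *Adamts13*, *Adamts16*, *Adamts18* and *Adamts19* had at most 13 counts.

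**Figure D4:**
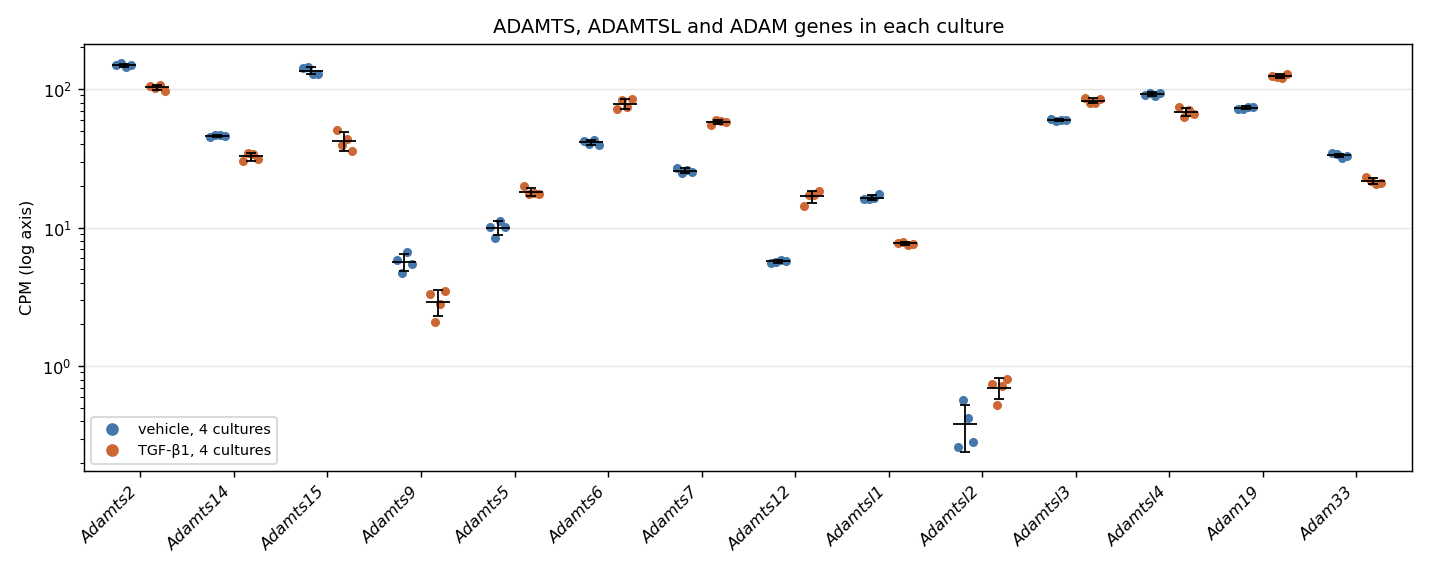
Level of 8 ADAMTS, 4 ADAMTSL and 2 ADAM genes in each culture (y axis, CPM on a log axis), with the mean as a long line and ± 1 SD as bars, 4 cultures per group. *Adamts5*, *Adamts6*, *Adamts7*, *Adamts12* and *Adam19* sit higher with TGF-β1, *Adamts2*, *Adamts9*, *Adamts14*, *Adamts15*, *Adamtsl1* and *Adam33* sit lower, and the points of *Adamtsl2* overlap.

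The ADAMTSL genes encode secreted glycoproteins of the matrix without a protease domain, several of which bind fibrillin. All 5 passed the test, 3 higher and 2 lower, where 41.3% of all genes tested passed. *Adamtsl1* was at 16.1, 16.0, 16.3 and 17.5 CPM with vehicle and at 7.79, 7.86, 7.51 and 7.68 CPM with TGF-β1. The treated values were nearly equal and less than 50% of any vehicle value (log2 fold change -1.09, standard error 0.06, edgeR adjusted p = 1.04e-18). *Adamtsl4* fell by 0.43 and *Adamtsl3* rose by 0.46 (adjusted p = 1.07e-10 and 2.30e-16). *Adamtsl5*, the most abundant per length, was at 108, 109, 111 and 114 CPM with vehicle and at 118, 123, 120.4 and 123 CPM with TGF-β1, a small rise of 0.14 without overlap (adjusted p = 4.44e-05). *Adamtsl2*, below 1 CPM, had overlapping groups. Its log2 fold change was 0.86 (adjusted p = 0.0174), and it lost the call without vehicle culture 1 (0.0640), vehicle culture 4 (0.0596) or TGF-β1 culture 8 (0.0540).

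More ADAM genes fell than rose, and by small amounts. Of 18 tested, 9 fell, 2 rose and 7 did not pass, and none reached an absolute log2 fold change of 1. The share that passed was 61.1%, where 41.3% of all genes tested passed, 20.9% upward and 20.3% downward. Several abundant sheddases were among those that fell. *Adam9* (ENSMUSG00000031555, chr8:24949611-25016927), the most abundant per length, was at 356, 366, 379 and 372 CPM with vehicle and at 338, 327, 333 and 318 CPM with TGF-β1. The groups did not overlap, and the log2 fold change was -0.16 (standard error 0.02, edgeR adjusted p = 2.59e-07). *Adam10*, the sheddase of Notch receptors and cadherins, fell by 0.26, *Adam17*, which releases TNF and EGF receptor ligands, by 0.15, *Adam12* by 0.18 and *Adam8* by 0.22 (edgeR adjusted p = 4.08e-12, 7.89e-06, 7.95e-09 and 0.00278). *Adam15* did not pass, at 97.2 ± 3.25 CPM with vehicle and 97.8 ± 3.16 CPM with TGF-β1 (SD, n = 4 each, adjusted p = 0.848).

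*Adam19* and *Adam33*, which belong to 1 branch of the family, moved in opposite directions. *Adam19* (ENSMUSG00000011256, chr11:46055992-46147343), which can cleave neuregulin, was at 72.1, 71.3, 74.8 and 74.8 CPM with vehicle and at 124, 122, 119.6 and 129 CPM with TGF-β1. All treated cultures were higher, with a log2 fold change of 0.75 (standard error 0.03, edgeR adjusted p = 3.66e-25). *Adam33*, known from smooth muscle and fibroblasts, was at 34.4, 33.9, 32.1 and 32.8 CPM with vehicle and at 23.1, 21.8, 20.7 and 21.0 CPM with TGF-β1, and every treated value was lower (log2 fold change -0.62, standard error 0.05, edgeR adjusted p = 1.50e-15). The median log2 fold change of the tested ADAM genes was -0.17 with a zinc site and -0.19 without. A difference by site was not tested. The counts below stand beside 41.3% of all genes tested that passed, 20.9% upward and 20.3% downward. With a zinc site, 1 ADAM gene rose and 7 fell of 12 tested. Without a site, 1 rose and 2 fell of 6 tested. The 1 that rose was *Adam22* (log2 fold change 0.18, adjusted p = 0.000140), a neuronal receptor without protease activity, and *Adam11* and *Adam23*, its relatives, did not pass.

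ADAM genes known from testis were scarce. *Adam5* was at 1.26, 1.51, 1.51 and 1.06 CPM with vehicle and at 0.938, 0.871, 0.960 and 0.511 CPM with TGF-β1, lower in every treated culture. Its log2 fold change was -0.71 (adjusted p = 0.00627), and without TGF-β1 culture 8 the adjusted p was 0.0503. *Adam4* and *Adam1a* fell by 0.29 and 0.40 (adjusted p = 0.00369 and 0.00554), but 63.7% of the exonic length of *Adam1a* overlaps other genes and 17.4% of the 50-base words of *Adam4* occur elsewhere. *Adam1b*, *Adam21*, *Adam30* and *Adam32* did not pass. The 15 ADAM genes that were not tested (*Adam2*, *Adam3*, *Adam6a*, *Adam6b*, *Adam7*, *Adam18*, *Adam20*, *Adam24*, *Adam25*, *Adam26a*, *Adam26b*, *Adam28*, *Adam29*, *Adam34* and *Adam39*) had at most 16 counts in any culture. On chromosome 8, 12 ADAM genes stand in 3 groups, and only *Adam5*, *Adam9* and *Adam32* among them were tested.

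Genes that act with these proteases were read from lists. Of 35 regulators and cofactors, 31 were tested, 14 rose and 9 fell. The share that passed was 74.2%, where 41.3% of all genes tested passed, 20.9% upward and 20.3% downward. Genes that rose included *Spock3* (log2 fold change 1.76, edgeR adjusted p = 7.51e-07) and the scavenger receptor *Lrp2* (1.43, adjusted p = 1.04e-16). *Spock3* was low, at 0.307 CPM with vehicle and 1.04 CPM with TGF-β1. *Furin*, which activates membrane-type MMP and ADAM precursors, rose by 0.35, and *Fbln1*, a cofactor of ADAMTS1, fell by 1.19. *Reck*, a membrane-bound MMP inhibitor, did not pass (adjusted p = 0.622). Among 11 other metzincins and procollagen-processing genes, 9 were tested, 6 rose and 1 fell (77.8% passed). *Pcolce2* (0.689 and 1.52 CPM) and *Pappa2* (3.47 and 6.94 CPM) rose by 1.14 and 1.00, and *Pcolce*, at 599 and 478 CPM, fell by 0.33. *Mep1a*, also among those that rose, had 37 counts in all with vehicle and 84 with TGF-β1. It met the filter only through the treated cultures, so no fitted change is given for it. The procollagen C-proteinase gene *Bmp1* was at 317 ± 3.36 CPM with vehicle and 610.3 ± 1.90 CPM with TGF-β1 (SD, n = 4 each), a rise of 0.95 (edgeR adjusted p = 2.45e-33), beside the falls of the N-proteinase genes.

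Substrate genes were read the same way. Of 20 matrix substrates, 18 were tested, 12 rose and 3 fell (83.3% passed, against the 41.3% of all genes). The largest rises were in *Fbn1* (1.81), *Eln* (1.43) and *Bgn* (1.06), of which *Eln* was low, at 0.821 CPM with vehicle and 2.21 CPM with TGF-β1. Versican (*Vcan*), a substrate of the proteoglycan-cleaving ADAMTS enzymes, rose by 0.89 (edgeR adjusted p = 1.50e-31). Of 25 membrane proteins known to be shed by ADAM proteases, 24 were tested, 11 rose and 7 fell, so that 18 passed. The largest changes were in *Hbegf*, an EGF receptor ligand (1.77), and in *Vcam1* and *Kitl*, which fell by 1.58 and 1.37. In the sum over each list, the matrix substrates and the fibroblast markers share *Col1a1*, *Col1a2* and *Dcn*, and the part of other cell types in any of these changes was not tested.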

How the data were processed

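RNA of the 8 cultures was prepared with a stranded total RNA kit. Per the labels and the methods, the authors aligned reads to mm10 with STAR 2.7.5c, took out duplicates with SAMtools 1.15 and used featureCounts 2.0.3 for the gene counts, which were deposited raw. The strand setting and the annotation release are not given in the sources used here.

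From these counts, 22544 genes that passed filterByExpr were tested with the quasi-likelihood test of edgeR 4.0.16 (R 4.3.3, limma 3.58.1) after TMM scaling, with robust dispersion and Benjamini-Hochberg adjustment at 0.05. The standard error is the log2 fold change over the square root of F. The authors used DESeq2, which was run as an alternative (version 1.42.0). CPM uses TMM-scaled library totals, and TPM uses merged exon lengths of GENCODE M21, in which 54495 of the 54532 identifiers were found. The members and all lists were chosen with earlier results of these data known, and the classes within families after values were seen. Values in each culture are given for the TIMP genes, for members that passed with an absolute log2 fold change of at least 0.5 and a mean of at least 1 CPM, and for the most abundant member of each family. Pathway lists are given as counts with some of their larger changes, and marker lists as counts or summed CPM. Further genes named from them, as well as members given as raw counts, were chosen after their values were seen. The code was tested on simulated data. Within a group, the chi-square statistic of counts between pairs of cultures was 2.25 to 3.93 per degree of freedom. Counting both mates of a pair would raise it too, so it does not show whether the cultures are independent. Each culture was counted as 1 replicate. The depth of 45255235 to 47651397 counts puts 3 counts at 0.0631 to 0.0658 CPM, and intervals cover counting error only. Alternatives were DESeq2, other scaling, other filters, counts halved and rounded up, and each culture left out. A gene of the pathway lists was counted in its lists but is not reported here.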

Additional observations from a re-analysis of the deposited data

Results flagged for a closer look

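Across 46 groups of 4 values, taken from the members given in each culture and the MMP to TIMP ratio, a culture stood apart from the rest of its group in 3, and a rate of 5% by chance alone would give 2.30. *Mmp14* was at 669 CPM in TGF-β1 culture 8, against 714 CPM in the nearest treated culture. *Timp2* was at 1636 CPM in vehicle culture 4, against 1601 CPM. *Adamts5* was at 20.1 CPM in TGF-β1 culture 5, where the nearest was at 17.7 CPM. The 3 lie in different cultures, and in each gene the groups remained apart.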

How the results depend on the processing

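The number of genes called ranged from 8559 to 9311 over the alternatives, that of members called higher from 20 to 23, and that of members called lower from 21 to 24. Of the 43 called members, 39 kept call and direction in every alternative that gave a value, and *Mmp19*, *Adamtsl2*, *Adam5* and *Adamts4* lost the call in at least 1. *Mmp11*, *Mmp16*, *Adam21* and *Adamts1* gained a call in at least 1. The sign turned in 3 members that were never called. *Adam15* was at -0.0022 with library totals only and from -0.013 to 0.034 with each culture left out, *Adam30* was from -0.13 to 0.34 and *Mmp27* from -0.051 to 0.099 with each culture left out. The log2 difference of the MMP to TIMP ratio, 0.13, moved to 0.562 without *Mmp14* and to -0.085 with MMP, ADAM and ADAMTS genes together, which follows from what is summed, and was 0.126 to 0.141 with each culture left out. No paired analysis was possible because the labels give the groups no shared replicate numbers. Depth limits the members with few counts, such as *Mmp1b*, *Mmp12* and *Adamtsl2*, and the 22 members not tested.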
